A study of Mus musculus with 30 samples.

Results

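The 10 genes described here belong to the neuronal cytoskeleton and the growing axon, and were followed through the formation of mouse retinal organoids. They are the neurofilament genes Nefl, Nefm, Nefh and Ina, the peripherin gene Prph, the growth cone gene Gap43, the stathmins Stmn2, Stmn3 and Stmn4, and the tubulin gene Tubb3. They were taken by symbol, and all 10 were found among the 45594 genes of the deposited gene table. All 10 were among the 19897 genes with enough counts to be tested.

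Neurofilaments are the intermediate filaments of neurons. The light, medium and heavy chains and alpha-internexin assemble together, and in the retina they are best known from the long axons of ganglion cells. Stathmins bind tubulin dimers and control how microtubules grow and shrink, GAP-43 is a membrane protein of the growth cone, and class III beta-tubulin is incorporated into the microtubules of young neurons.

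RNA-seq libraries of poly(A) RNA came from 1 iPSC clone (induced pluripotent stem cells). The clone was made from fibroblasts of wild-type Nrl-GFP embryos with inducible lentiviral Oct3/4, Sox2, Klf4 and c-Myc; in this reporter line the promoter of the rod factor gene Nrl drives green fluorescent protein. The day 0 (D0) libraries are the undifferentiated cells, kept on feeders with LIF and serum, and the D4 libraries hold 36 whole aggregates each. Later libraries hold neural retina that was cut out of the organoids: 30 organoids per library at D7, 20 at D10 and 12 at each of D12, D15, D18, D22, D25 and D32. Matrigel was added at D1, N2 supplement at D7, taurine, 9-cis retinal and IGF1 at D10, and serum and B27 at D26. Oxygen went from 5% to 20% at D10, and none of these changes can be told apart from time in culture. All groups share the line, the reporter and the protocol, and each day had 3 libraries described as biological replicates. Whether these came from separate differentiations is not given in the sources used here, so p-values measure the spread between these libraries.

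The 30 libraries held 16773624 to 24526704 estimated counts. Levels are in CPM, the usual depth-normalised count unit, after TMM scaling, a method that removes differences in composition between libraries, and changes are log2 differences between days with their standard error (SE). A gene was called changed at a Benjamini-Hochberg adjusted p below 0.05 in edgeR's quasi-likelihood F test over all tested genes. Several features of the libraries touch the values below. D4 replicate 2 had the lowest scaling factor (0.524), and D4 replicate 3 was the lowest library of its day for 9 of the 10 genes. D12 replicate 1 was the highest of its day for all 10 genes, and D7 replicate 1, D10 replicate 1, D15 replicate 3 and D25 replicate 3 were each the highest of their day for 9. D10 replicate 2 and D25 replicate 1 were the lowest of their day for 9. The libraries also fell into 2 sets by the share of Rpl3-family counts assigned to pseudogenes: 12 libraries with shares below 50% (all of D0 and D7, and replicate 2 of D10 to D25) and 18 above. With this set as a term in the model 9, 9 and 8 of the 10 genes were called in the 3 spans described next, the same numbers as without it. All D0 and D7 libraries lie in the same set, so the term could not alter the log2 changes of the span between them. The summed level of 7 pluripotency markers was 4790 to 5240 CPM at D0 and 51.2 to 69.4 CPM at D7. Between these days the D4 libraries differed widely in this sum, at 384, 649 and 117 CPM in replicates 1, 2 and 3. The summed level of 10 photoreceptor markers was 5760 to 7490 CPM at D32. RNA from whole tissue pieces was measured, so fewer cells of a type and less RNA per cell cannot be told apart.

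The course of the 10 genes was described in 3 spans: from iPSCs to early neural retina (D0 to D7), through the days of early neurogenesis (D7 to D15) and through maturation (D15 to D32). All 10 genes changed over the 10 days, where 91.4% of all tested genes did. From D0 to D7, 5 genes rose, 4 fell and Nefl did not pass the test. Among all tested genes 28.8% rose and 29.6% fell in that span. From D7 to D15, 8 genes rose and only Prph fell, while Nefh did not pass. The background was 24.3% higher and 19.6% lower. From D15 to D32, 6 genes fell, Nefh and Prph rose, and Stmn3 and Stmn4 did not pass, where 27.8% of all tested genes fell and 26.3% rose. The median log2 change of the 5 intermediate filament genes was -1.61, 2.58 and -1.14 in the 3 spans, and that of Gap43, the stathmins and Tubb3 was 1.96, 2.35 and -1.04. The median of all tested genes was 0, 0.02 and 0.

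**Figure D1:**
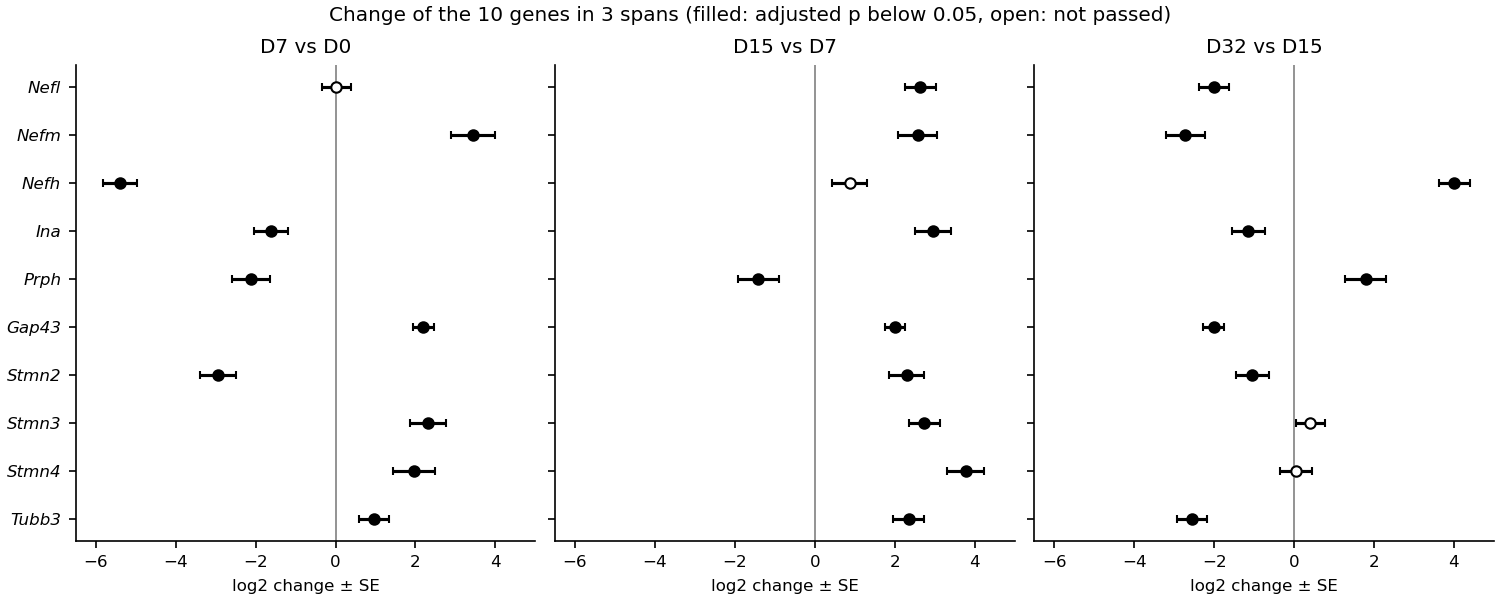
Log2 change with its standard error (horizontal axis) of each of the 10 genes (vertical axis) in the spans D7 vs D0, D15 vs D7 and D32 vs D15, with filled circles for an adjusted p below 0.05 and open circles for changes that did not pass. Prph is the gene on the left of 0 in the middle panel, and Nefh and Prph are the filled circles on the right of 0 in the last panel.

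Nefl encodes the light neurofilament chain, on which the other chains assemble. It lies on chromosome 14 (GRCm38, chr14:68083863-68089095, plus strand), within the span of Nefm on the opposite strand, and how the counting used strand is not given in the sources used here. In the D7 libraries Nefl stood at 43.6, 25.9 and 10.8 CPM, and in the D15 libraries at 113, 141 and 248 CPM, so all D15 libraries were above all D7 libraries. The rise was 2.64 on the log2 scale (SE 0.39, adjusted p = 4.7e-06 by edgeR), or 6.24-fold. By D22 the 3 libraries stood at 22, 38.5 and 33.4 CPM, back in the range of D7. At D32 they were nearly equal, at 41.8, 41.4 and 41.6 CPM, and the fall from D15 to D32 was -2.01 (SE 0.38, adjusted p = 6.9e-05). Between D0, at 23.0, 24.2 and 32 CPM, and D7 the libraries overlapped and the log2 difference was 0.02 (SE 0.37, adjusted p = 0.98).

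Nefm, the medium chain (chr14:68082590-68124846, minus strand), began much lower. The D0 libraries held 2.21, 1.61 and 4.62 CPM and the D4 libraries 16.0, 14.8 and 14.0 CPM, with no overlap. The 3 libraries of D7 differed widely, at 60.7, 18.5 and 11.5 CPM, and their mean was 10.8-fold above D0 in the fit (log2 change 3.44, SE 0.55, adjusted p = 6.5e-06). Without D7 replicate 1 this change was 2.43 (adjusted p = 0.00012). D15 brought 129, 110 and 305 CPM, a rise of 2.58 over D7 (SE 0.49, adjusted p = 0.00011), which was 1.99 without D15 replicate 3 and 3.60 without D7 replicate 1. All D15 libraries lay above all D7 libraries in the full data. The descent was steep: 84.2 ± 15.4 CPM at D18 (SD, n = 3), 22.0 ± 4.55 CPM at D22 and 27.5 ± 3.43 CPM at D32. The change from D15 to D32 was -2.72 (SE 0.49, adjusted p = 4.1e-05), or -2.13 without D15 replicate 3. Nefm and Nefl had their highest daily mean on the same day, D15, and for both the D15 libraries overlapped those of D12 and lay above all D18 libraries. The log2 ratio of Nefm to Nefl per transcript length was 0.06 ± 0.35 at D15 and -0.59 ± 0.18 at D32, against -3.35 ± 0.55 at D0 (SD, n = 3 each).

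Nefh, the heavy chain (chr11:4938754-4948064, minus strand), which in many neurons is known to come later than the other chains, had the opposite course. Its libraries stood at 28.6, 31.1 and 42.9 CPM at D0 and at 0.776, 0.862 and 0.797 CPM at D7, a log2 change of -5.39 (SE 0.42, adjusted p = 7.1e-11). It stayed below 2 CPM through D15, at 1.71, 1.55 and 1.2 CPM, while Nefl and Nefm were at their highest. Its rise was then steady: 3.96 ± 0.46 CPM at D18, 9.47 ± 0.743 at D22, 14.5 ± 0.826 at D25 and 24.0 ± 1.78 at D32 (SD, n = 3 each), with no overlap between neighbouring days. From D15 to D32 the change was 4.01 (SE 0.39, adjusted p = 3.5e-09), or 16.1-fold. The step from D15 to D18 passed narrowly (log2 change 1.41, adjusted p = 0.042): its adjusted p was between 0.050 and 0.18 when 1 library of D15, D18 or D32, D0 replicate 2, D7 replicate 2, or replicate 1 or 3 of D22 or D25 was left out. The difference from D15 to D7 was 0.87 (SE 0.43, adjusted p = 0.11), with libraries that did not overlap, and it was called without D4 replicates 2 and 3 (adjusted p = 0.048).

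The libraries with the most Nefh at D0 were also those with the most feeder cell transcripts. The summed level of 9 fibroblast and feeder markers in D0 replicates 1, 2 and 3 was 418, 696 and 1170 CPM, none of the 9 was at 0, and the sum was 29.7 to 37.9 CPM at D7. Col1a1, the collagen gene of fibroblasts, stood at 112, 207 and 392 CPM in the same order. Prph, Nefl, Ina, Gap43 and Tubb3 had the same order at D0. Genes outside the feeder list shared it too, such as the pluripotency gene Pou5f1 (831, 868 and 1170 CPM). The summed level of 7 pluripotency markers had the reverse order (5240, 4910 and 4790 CPM). The part of feeder cells in the levels of the members was not tested.

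Ina encodes alpha-internexin, which is known to appear before the other neurofilament chains in many young neurons. It lies at chr19:47014698-47025327 on the plus strand and overlaps Nt5c2 on the opposite strand (39.8 to 75.0 CPM as daily means). Its level at D7 was the lowest of all days, with libraries at 30.6, 16.9 and 9.23 CPM. The D15 libraries held 107, 117 and 218 CPM, all above D7, a rise of 2.96 (SE 0.44, adjusted p = 5.9e-06). Unlike Nefl and Nefm it was not back near its D7 level at D22: the daily mean was 167 ± 34.5 CPM at D18, 141 ± 24.6 at D22 and 149 ± 39.2 at D25 (SD, n = 3 each), and the libraries of these days overlapped. Only at D32 did it fall, to 68.9, 59.7 and 71.5 CPM, below every D25 library (log2 change from D25 -1.16, SE 0.41, adjusted p = 0.042). This step was not called without D0 replicate 2, D25 replicate 2 or 3, or any 1 of the D32 libraries (adjusted p of 0.051 to 0.15) or with RLE factors, with library sizes alone or in limma (adjusted p of 0.050 to 0.060). The fall from D15 to D32 was -1.14 (SE 0.41, adjusted p = 0.021), and -0.75 without D15 replicate 3 (adjusted p = 0.16) or -1.05 without D32 replicate 2 (adjusted p = 0.072).

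Prph encodes peripherin, an intermediate filament of peripheral neurons and of some central neurons with peripheral axons (chr15:99055174-99058978, plus strand). Its highest daily mean, 9.67 ± 1.43 CPM at D0 (SD, n = 3), was the lowest such value of the 10 genes. The D0 libraries held 8.23, 9.69 and 11.1 CPM, the D7 libraries 2.48, 2.05 and 2.16 CPM and the D15 libraries 0.987, 0.482 and 1.04 CPM, each day below the one before it. The changes were -2.11 from D0 to D7 (SE 0.48, adjusted p = 0.0005) and -1.41 from D7 to D15 (SE 0.51, adjusted p = 0.028). The second was not called without D7 replicate 1 (-1.32, adjusted p = 0.072) or without D15 replicate 2 (-1.13, adjusted p = 0.12). At D32 the libraries returned to 2.63, 2.89 and 3.21 CPM, above all libraries of D10 to D25, and the rise from D15 was 1.79 (SE 0.51, adjusted p = 0.0045). The summed level of 8 markers of peripheral neurons and neural crest was 50.3 to 80.2 CPM at D15 and 39.0 to 42.1 CPM at D32, when 1 of the 8 was at 0. Sox10, which defines neural crest and its glia, stood at 0.311 ± 0.297 CPM at D32 (SD, n = 3). Their part in the Prph level was not tested.

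Ina and Prph are shown by sequence because they belong to one filament family and moved in opposite directions from D7 to D15. The 250 bases before each RefSeq start (GRCm38.p6) are printed 5′ to 3′ on the gene's strand, chr19:47014431-47014680 for Ina and chr15:99054924-99055173 for Prph. Of the 10 genes, 4 had an entry in the RefSeq promoter table: these, Stmn3 and Tubb3. In capitals stand CAGCTG, an E-box that reads alike on both strands, and the core promoter element TATAAA. Capitals also mark where the GC box GGGCGG lies on the opposite strand. The first window lies in an intron of Nt5c2.
Ina: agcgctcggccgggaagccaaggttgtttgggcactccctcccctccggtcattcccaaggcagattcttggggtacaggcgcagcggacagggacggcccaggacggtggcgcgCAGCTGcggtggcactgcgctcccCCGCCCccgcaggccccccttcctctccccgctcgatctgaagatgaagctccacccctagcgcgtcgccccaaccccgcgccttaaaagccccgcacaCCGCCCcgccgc
Prph: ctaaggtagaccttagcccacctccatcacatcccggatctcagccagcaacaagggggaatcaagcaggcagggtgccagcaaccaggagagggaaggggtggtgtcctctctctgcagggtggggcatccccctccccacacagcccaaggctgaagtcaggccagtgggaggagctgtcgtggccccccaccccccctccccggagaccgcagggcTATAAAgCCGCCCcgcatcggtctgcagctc

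The Ina window held 1 CAGCTG and 2 GC boxes, and the Prph window held 1 TATAAA and 1 GC box, next to each other. Over the windows of all 32851 starts, searched on both strands, 13.0% held CAGCTG, 32.7% GGGCGG and 12.4% TATAAA. TTCAGCACC, part of the element bound by the repressor REST, was in none of the 4 windows and in 0.301% of all windows.

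Together these courses changed the make-up of the neurofilament family. Levels of different genes were compared as length-scaled levels, that is counts divided by transcript length and then scaled to the same total in each library. At D0 Ina made up 44.3% ± 2.57 of the 5 genes, Nefh 21.0% ± 1.38, Nefl 19.3% ± 0.81 and Prph 13.4% ± 0.487, while Nefm was at 2.01% ± 0.831 (SD, n = 3 each). At D15 Nefm (35.1% ± 4.92), Nefl (33.5% ± 3.44) and Ina (30.8% ± 1.74) were close to each other and their libraries overlapped, with Nefh at 0.295% ± 0.146. At D22 Ina alone took 70.0% ± 0.984, and at D25 68.7% ± 1.24. By D32 its share had come down to 42.2% ± 1.65, Nefl was at 25% ± 1.35, Nefm at 16.8% ± 1.2 and Nefh at 12.4% ± 1.44. Nefh stood 0.12 ± 0.05 above Nefl on the log2 scale at D0, 6.98 ± 0.85 below it at D15 (log2 ratio -6.98) and 1.04 ± 0.11 below it at D32 (log2 ratio -1.04). The summed length-scaled level of the 5 genes was 44.4 ± 30.4 at D7, 260 ± 110 at D15 and 114 ± 2.85 at D32.

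**Figure D2:**
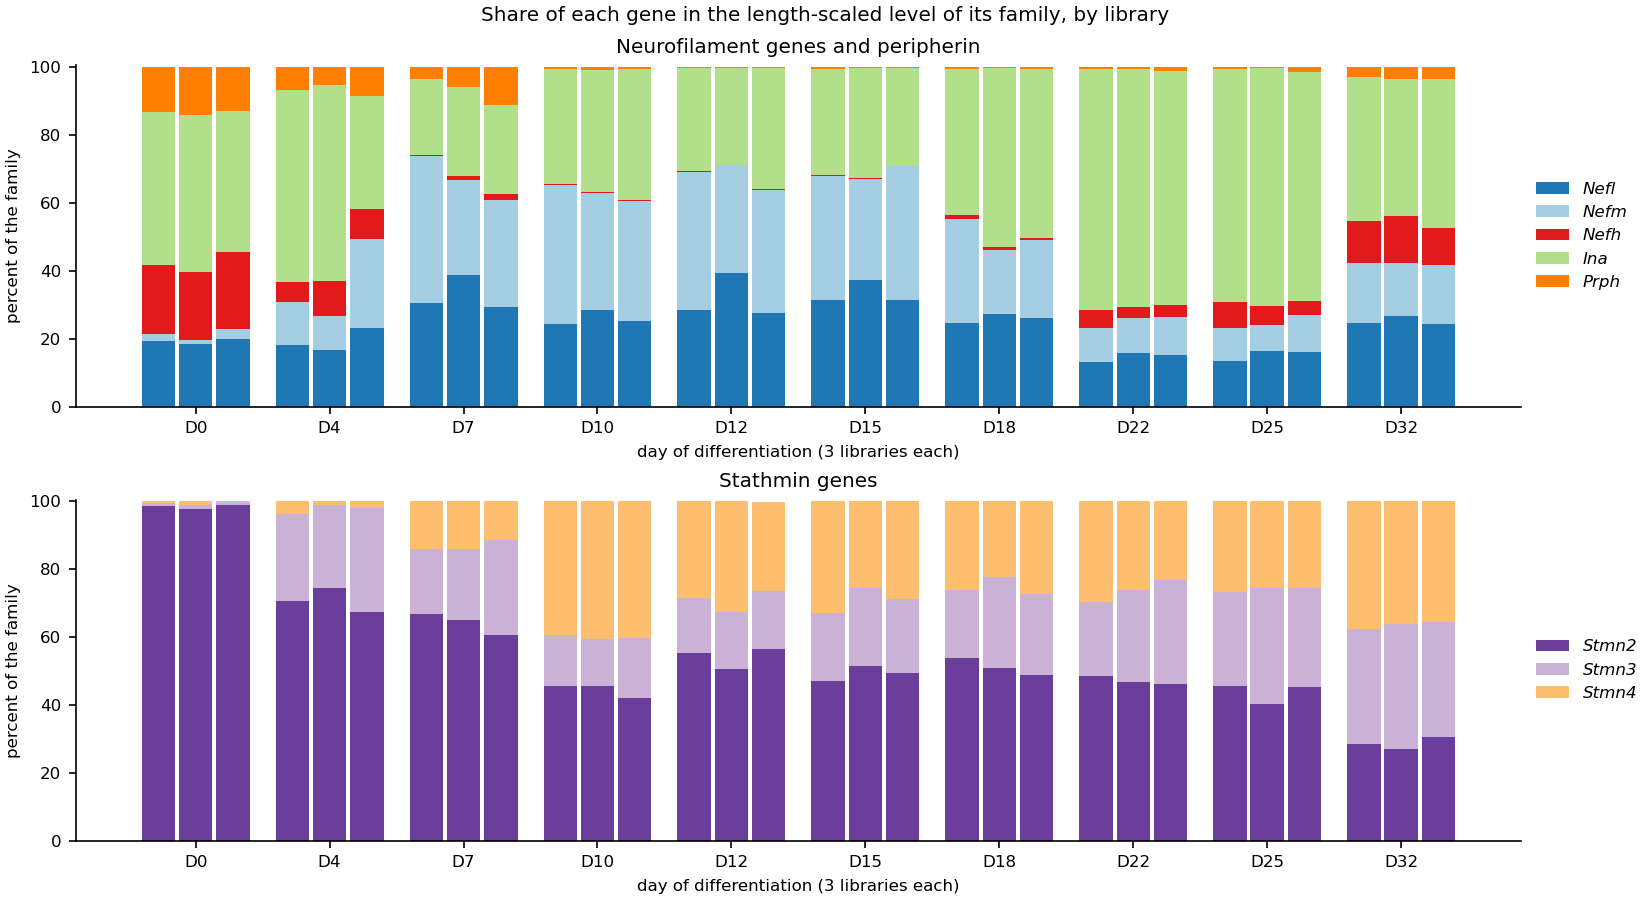
Stacked bars of the share (vertical axis, percent) of each gene in the length-scaled level of its family in each of the 30 libraries, grouped by day (horizontal axis). Ina takes 69.0% to 70.9% of the neurofilament bars at D22, and Stmn2 goes from at least 97.8% of the stathmin bars at D0 to at most 30.5% at D32.

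Gap43, whose protein is carried into growth cones and marks axon outgrowth (chr16:42248442-42340651, minus strand), had its highest daily mean at D15, as Nefl and Nefm did. It stood at 8.45, 10.6 and 12 CPM at D0 and at 57.6, 48.3 and 37.1 CPM at D7, with no overlap (log2 change 2.20, SE 0.27, adjusted p = 1.9e-07). The D15 libraries held 147, 151 and 280 CPM, a rise of 2.01 (SE 0.26, adjusted p = 1e-06), or 1.65 without D15 replicate 3. At D18 it was still 155 ± 34.2 CPM, and the drop came at D22, with libraries at 58.2, 58.4 and 73.0 CPM (log2 change from D18 -1.29, SE 0.26, adjusted p = 0.0018). The D32 libraries, at 44.9, 40.6 and 57.7 CPM, overlapped those of D7. The change from D15 to D32 was -2.01 (SE 0.26, adjusted p = 4.7e-07).

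Tubb3, the class III beta-tubulin that is widely used to mark young neurons (chr8:123411424-123422015, plus strand), shares its strand and part of its span with Gm20388, a predicted gene at 47.1 to 84.2 CPM as daily means, so reads may be divided between them. Its libraries rose from 166, 103 and 53.1 CPM at D7 to 450, 427 and 763 CPM at D15, a change of 2.35 (SE 0.38, adjusted p = 1.9e-05). Per length it was the most abundant of the 10 genes from D7 to D25, with a length-scaled level of 509 ± 147 at D15 against 238 ± 81.1 for Gap43 (SD, n = 3 each). On these days its libraries overlapped with those of Gap43 at D7, and with those of Stmn2 at D7 and D25. The descent was slower than that of Nefm: 419 ± 75.7 CPM at D18, 273 ± 73.6 at D22 and 257 ± 115 at D25. At D32 all 3 libraries were low, at 88.2, 99.3 and 93.7 CPM, below every D25 library (log2 change -1.46, SE 0.37, adjusted p = 0.0053). This last step was at an adjusted p of 0.061 without D25 replicate 3. The D15 to D32 change was -2.55 (SE 0.38, adjusted p = 3.9e-06). The smaller D0 to D7 difference (0.96, SE 0.37, adjusted p = 0.029) came from overlapping libraries, and was at 0.50 without D7 replicate 1 (adjusted p = 0.28), 0.79 without D0 replicate 1 (adjusted p = 0.11) and 0.94 without D0 replicate 2 (adjusted p = 0.068).

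**Figure D3:**
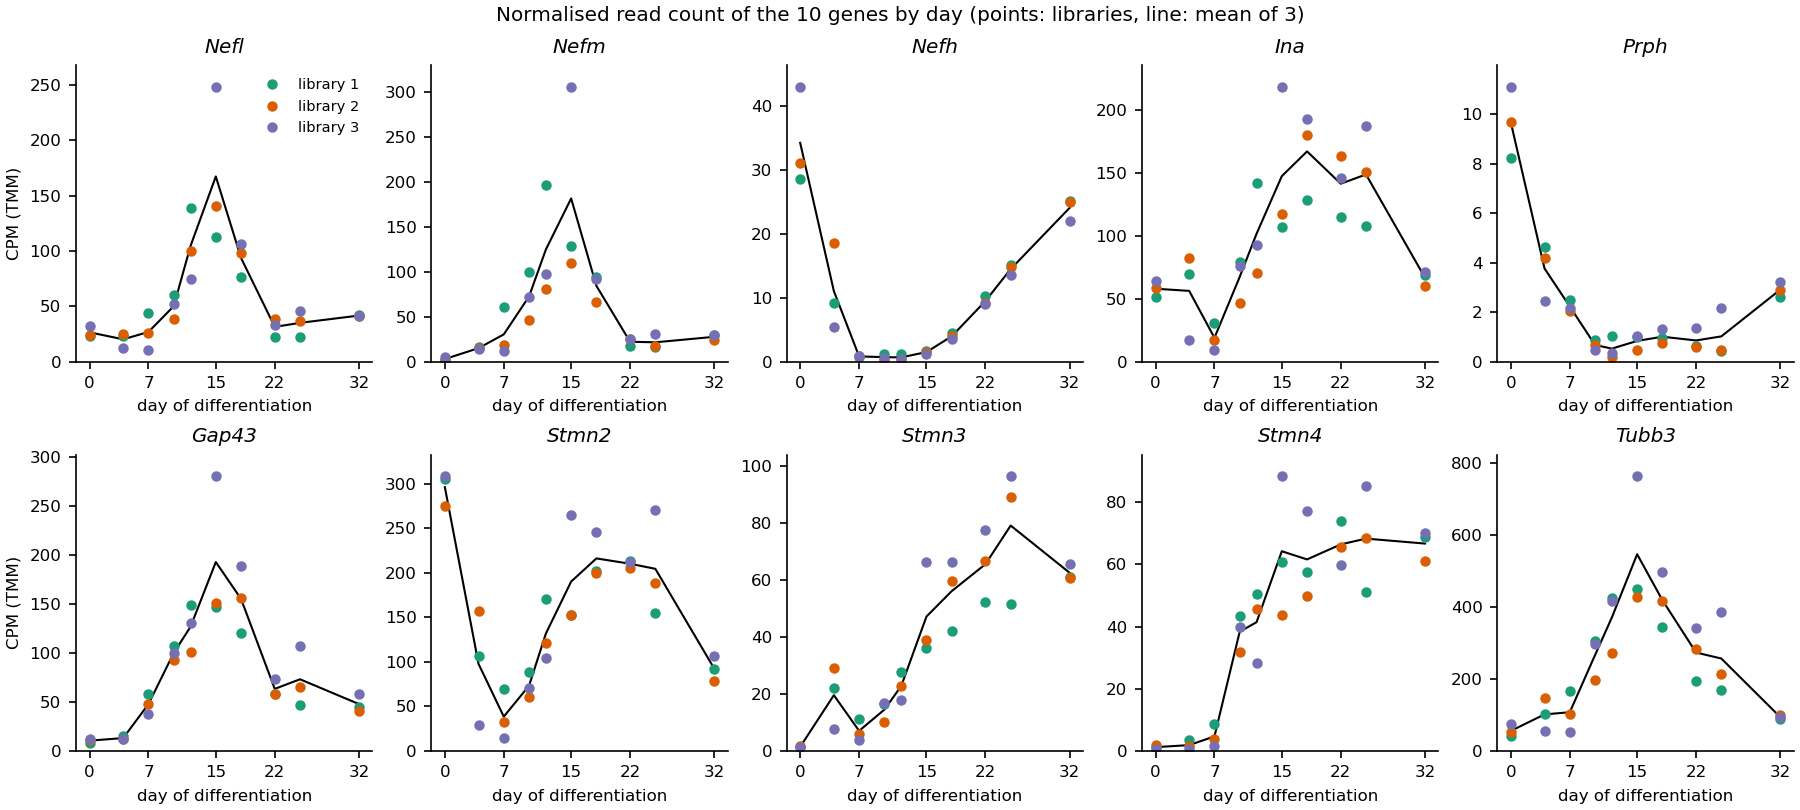
CPM after TMM scaling (vertical axis, a separate scale for each gene) against day of differentiation (horizontal axis) for the 10 genes, with 1 point per library and a line through the daily means of 3 libraries. Nefl, Nefm, Gap43 and Tubb3 have their highest daily mean at D15, where replicate 3 lies above the other libraries (Nefm at 305 against 129 and 110 CPM). Nefh is at its lowest between D7 and D15.

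Stmn2, the stathmin of growth cones that is known for its loss in motor neuron disease (chr3:8509360-8561606, plus strand), was most abundant in the iPSC libraries, at 305, 275 and 308 CPM, above every library of the later days. It fell to 68.9, 31.9 and 14.5 CPM at D7 (log2 change -2.94, SE 0.45, adjusted p = 3.7e-06), and the change was -3.67 without D7 replicate 1. Its order over the D0 libraries differed from that of the feeder markers, the library with the lowest feeder sum being nearly as high as the one with the highest. At D15 the libraries held 152, 153 and 265 CPM, all above D7 (log2 change 2.30, SE 0.44, adjusted p = 0.00013), and the change was 3.03 without D7 replicate 1. It then stayed level, at 216 ± 25.7 CPM at D18, 210 ± 4.62 at D22 and 204 ± 59.2 at D25 (SD, n = 3 each), and stood at 92.0, 78.8 and 106 CPM at D32. The fall from D15 to D32 (-1.04, SE 0.42, adjusted p = 0.039) was among the least certain: its adjusted p was 0.19 without D15 replicate 3, 0.055 to 0.12 without any 1 of the D32 libraries, and 0.053 to 0.065 with RLE factors, with library sizes alone or in limma. The step from D25 to D32 was -1.14 (adjusted p = 0.051), with no overlap between the libraries of these days.

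Stmn3 (chr2:181306459-181314500, minus strand), a stathmin found on Golgi and vesicle membranes of neurons, was near absent at D0, at 1.33, 1.66 and 1.21 CPM. It appeared at D4 with 21.9, 29.1 and 7.58 CPM, a change of 3.78 (SE 0.45, adjusted p = 1.3e-07), and was lower again at D7 with 11.3, 5.87 and 3.87 CPM. The D4 and D7 libraries overlapped, and the difference (-1.46, adjusted p = 0.0033) was at an adjusted p of 0.089 with the 6 libraries of these days alone. From D7 it climbed to 36.1, 39.0 and 66.3 CPM at D15 (log2 change 2.74, SE 0.39, adjusted p = 3.3e-06). Thereafter the daily mean went on to 65.5 ± 12.7 CPM at D22 and 79.1 ± 24.0 at D25, and was 62.5 ± 2.77 at D32. The difference from D15 to D32 was 0.41 (SE 0.36, adjusted p = 0.35), with overlapping libraries.

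The promoter window of Stmn3 is shown beside those of Ina and Prph because Stmn3 was among the genes that did not fall after D15. It covers the 250 bases before the RefSeq start (GRCm38.p6, chr2:181314501-181314750, minus strand, printed 5′ to 3′), and capitals mark CAGATG, another E-box.
Stmn3: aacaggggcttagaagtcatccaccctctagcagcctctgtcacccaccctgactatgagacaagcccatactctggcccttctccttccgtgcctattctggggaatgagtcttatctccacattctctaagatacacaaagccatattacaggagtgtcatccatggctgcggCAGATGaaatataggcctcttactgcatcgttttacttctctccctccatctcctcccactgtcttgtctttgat

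CAGATG on either strand was in 14.4% of all windows, and the Stmn3 window held no GC box. Its GC content was 48.8%, against 70.8% for Ina and 65.2% for Prph. The Tubb3 window held 2 GC boxes and neither of the E-boxes.

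Stmn4 (chr14:66344296-66361680, plus strand), a stathmin largely limited to neurons, was low until D7 and higher from D10 on. Its libraries stood at 1.16, 1.87 and 0.520 CPM at D0 and at 8.49, 3.88 and 1.59 CPM at D7. At D10 they held 43.4, 31.9 and 39.7 CPM, a change of 3.03 (SE 0.45, adjusted p = 1.2e-05), or 8.18-fold, and of 3.80 without D7 replicate 1. From D7 to D15 the change was 3.78 (SE 0.46, adjusted p = 3.8e-07), or 4.55 without that library. From D15 on the daily mean stayed between 61.6 and 68.3 CPM, and the D15 to D32 difference was 0.05 (SE 0.40, adjusted p = 0.93). The D0 to D7 difference of 1.96 (adjusted p = 0.0025) came from overlapping libraries and was 1.2 without D7 replicate 1 (adjusted p = 0.065).

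Stmn4 was also the gene with the most transcripts in the table, 9 of them. One coding form, Stmn4-001 of 1303 bases, gave 57.6% of the length-scaled level at D10 (median, range 53.5% to 63.0%), 71.6% at D15 (66.8% to 71.9%) and 60.4% at D32 (58.8% to 68.1%). A second, annotated as a retained intron (Stmn4-007), gave 19.3% at D10, 10.5% at D15 and 16.0% at D32, with ranges of 12.5% to 21.8%, 9.26% to 14.0% and 15.6% to 17.1%. By counts, without division by length, these medians of Stmn4-007 were 11.2%, 5.91% and 9.34%. Counts of overlapping transcripts are estimates and were not tested. Stmn2-001 gave 90.9% to 99.5% of Stmn2 in every library, and Nefl, Nefh, Ina, Stmn3 and Tubb3 each had a single transcript in the table.

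Within the stathmins the balance was further from Stmn2 at D15 than at D0, and further still at D32. Stmn2 made up 98.5% ± 0.593 of their length-scaled level at D0, 49.3% ± 2.19 at D15 and 28.6% ± 1.79 at D32 (SD, n = 3 each). At D32 Stmn4 was at 36.4% ± 0.955 and Stmn3 at 34.9% ± 1.64. The log2 ratio of Stmn3 to Stmn2 went from -1.19 ± 0.05 at D15 to 0.29 ± 0.15 at D32, and that of Stmn4 to Stmn2 from -0.77 ± 0.25 to 0.35 ± 0.11. D32 was the only day on which every library had more Stmn3 and more Stmn4 than Stmn2 per length. With the longest transcript as the length of each gene, Stmn2 was at 38.6% at D15 and 20.6% at D32. The sum of the 3 genes did not follow the neurofilament sum after D15: it was 333 ± 95.5 at D15, 463 ± 102 at D25 and 368 ± 18.0 at D32, with overlapping libraries.

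**Figure D4:**
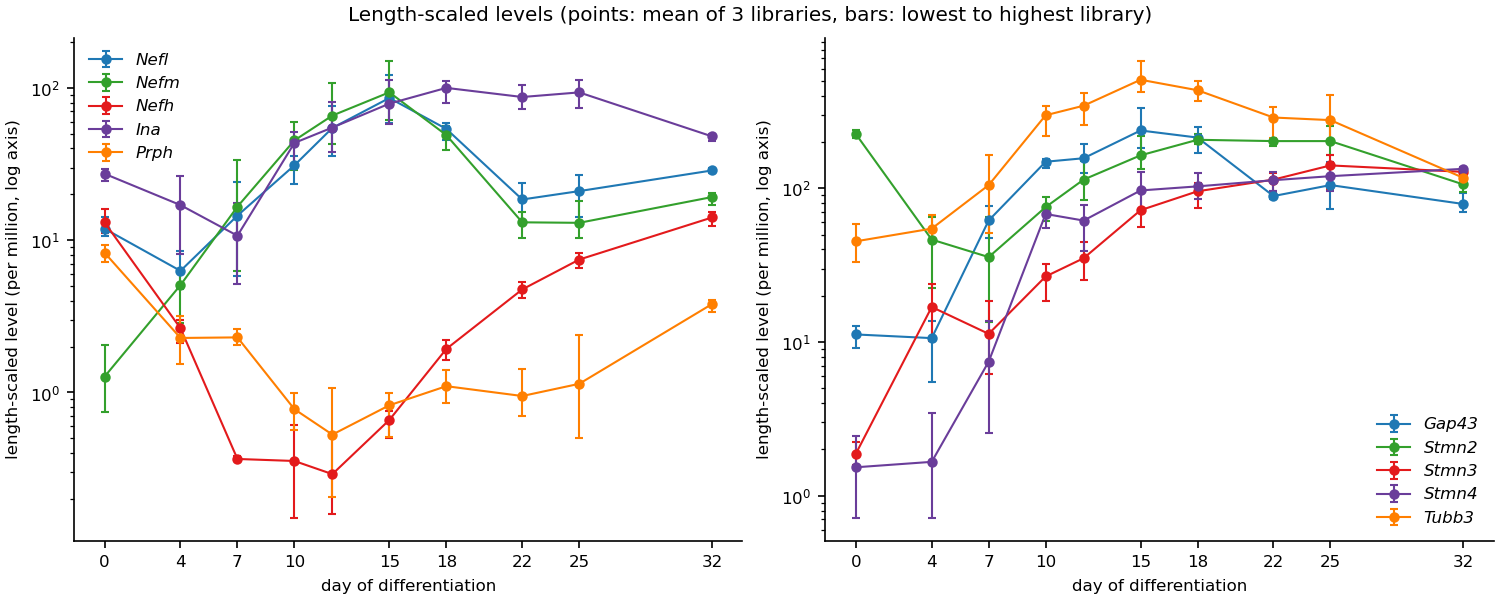
Length-scaled level (vertical axis, log scale, scaled to the same total in each library) by day (horizontal axis) for the intermediate filament genes (left) and for Gap43, the stathmins and Tubb3 (right); points are means of 3 libraries and bars run from the lowest to the highest library. Nefh goes from 13.1 at D0 to 0.291 at D12 and back to 14.1 at D32, and the lines of Stmn2, Stmn3, Stmn4 and Tubb3 meet between 106 and 134 at D32.

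Steps between consecutive days showed when these changes took place. Between D0 and D4, Nefm and Stmn3 rose and Nefh, Prph and Stmn2 fell, at a background of 27% higher and 24.8% lower. The fall of Prph was at an adjusted p of 0.052 without D0 replicate 3 and of 0.073 without D4 replicate 3. Between D4 and D7, Gap43 and Stmn4 rose and Nefh, Ina, Stmn2 and Stmn3 fell, where 20% of all tested genes rose and 22.8% fell. With the 6 libraries of these 2 days alone 2 of the 10 genes were called, since Stmn4, Stmn2, Ina and Stmn3 stood at adjusted p of 0.24, 0.19, 0.099 and 0.089. Stmn4 was also not called without D4 replicate 2 or 3 or D7 replicate 1 (0.12 to 0.43), nor Stmn2 without D4 replicate 2 or D7 replicate 2 or 3 (0.055 to 0.16). The library set as a term left Stmn2 uncalled (0.084) and added Nefm (0.021) in this step. Between D7 and D10, 6 genes rose (Nefm, Ina, Gap43, Stmn3, Stmn4 and Tubb3) and Prph fell, against 20% and 17.8% of all tested genes. Nefm and Stmn3 were not called without D7 replicate 2 or 3 or D10 replicate 1 or 3 (adjusted p of 0.070 to 0.19), Tubb3 not without D7 replicate 3 (0.059) and Prph not without D10 replicate 3 (0.057). The library set as a term reduced the calls from D7 to D10 to 5, with Nefm at an adjusted p of 0.18 and Stmn3 at 0.075.

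The climb from D10 to D15 was gradual, and no gene was called in either of its steps by edgeR. At an unadjusted p below 0.05 stood 1 gene (Nefl) from D10 to D12 and 3 genes (Nefh, Stmn3 and Gap43) from D12 to D15; DESeq2 called 0 and 1. The background was 2.52% higher and 1.89% lower from D10 to D12, and 5.13% and 2.29% from D12 to D15. From D15 to D18, Nefh alone rose, where 1.91% of all tested genes rose and 0.975% fell. Between D18 and D22, Nefl (-1.58), Nefm (-1.93) and Gap43 (-1.29) fell together and Nefh rose by 1.26, at a background of 4.44% lower and 3.75% higher. Without D22 replicate 1 Gap43 alone was called, with Nefl at an adjusted p of 0.055, Nefm at 0.061 and Nefh at 0.074. Nefh was also not called without any 1 of the D18 libraries or D22 replicate 2 (0.054 to 0.096). From D22 to D25 no gene was called by edgeR or DESeq2, and 0 stood at an unadjusted p below 0.05, at a background of 1.45% higher and 1.02% lower. Between D25 and D32, Ina and Tubb3 fell and Prph rose by 1.51, against 13.8% lower and 9.31% higher among all tested genes. Prph was not called without D25 replicate 1 or 2 or any 1 of the D32 libraries (adjusted p of 0.050 to 0.15). With the library set as a term 5 genes were called in this step.

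Markers of ganglion cells, the retinal neurons with the longest axons, were set beside the members. Pou4f2, a transcription factor of ganglion cells, had a mean of 0.139 ± 0.158 CPM at D7, 26.3 ± 1.44 at D10, 52.4 ± 26.1 at D15, 17.8 ± 0.806 at D18 and 1.74 ± 0.681 at D22 (SD, n = 3 each). The D15 libraries held 32.9, 42.3 and 82.0 CPM of Pou4f2 and 41.3, 57.7 and 106 CPM of Isl1, a factor shared by ganglion, amacrine and bipolar cells, so replicate 3 was again the highest. The summed level of 16 ganglion cell markers in these libraries was 332, 349 and 551 CPM. Other days differed: at D12 replicate 1 was the highest for all 10 members, but Pou4f2 was highest in replicate 2 (46.8 CPM, against 31.2 in replicate 1). Over the 7 days from D10, the highest library of a member was also highest in this sum on 3 to 5 days, and on 0 for Nefh. Over the list the sum ranged from 141 to 182 CPM at D7, 332 to 551 at D15, 85.4 to 110 at D22 and 95.4 to 116 at D32, and none of the 16 had a daily mean of 0. At D0 this sum was already 441 to 545 CPM, where Rbpms, a marker also found outside neurons, stood at 192 ± 7.24 CPM and Pou4f2 at 0.963 ± 0.326 CPM. From D7 to D15, 10 of the 16 rose and 2 fell, and from D15 to D32, 1 rose and 9 fell. Among all tested genes 24.3% rose and 19.6% fell in the first of these spans, and 26.3% rose and 27.8% fell in the second. For 8 markers of retinal progenitors and dividing cells the sum was 1670 to 1760 CPM at D7, 4550 to 4840 at D12 and 3910 to 4570 at D15. It was 1230 to 1790 CPM at D22 and 318 to 383 at D32. Of the 8, 4 rose and 1 fell from D7 to D15, and 0 rose and 8 fell from D15 to D32. The part of any of these cells in the members' levels was not tested.

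**Figure D5:**
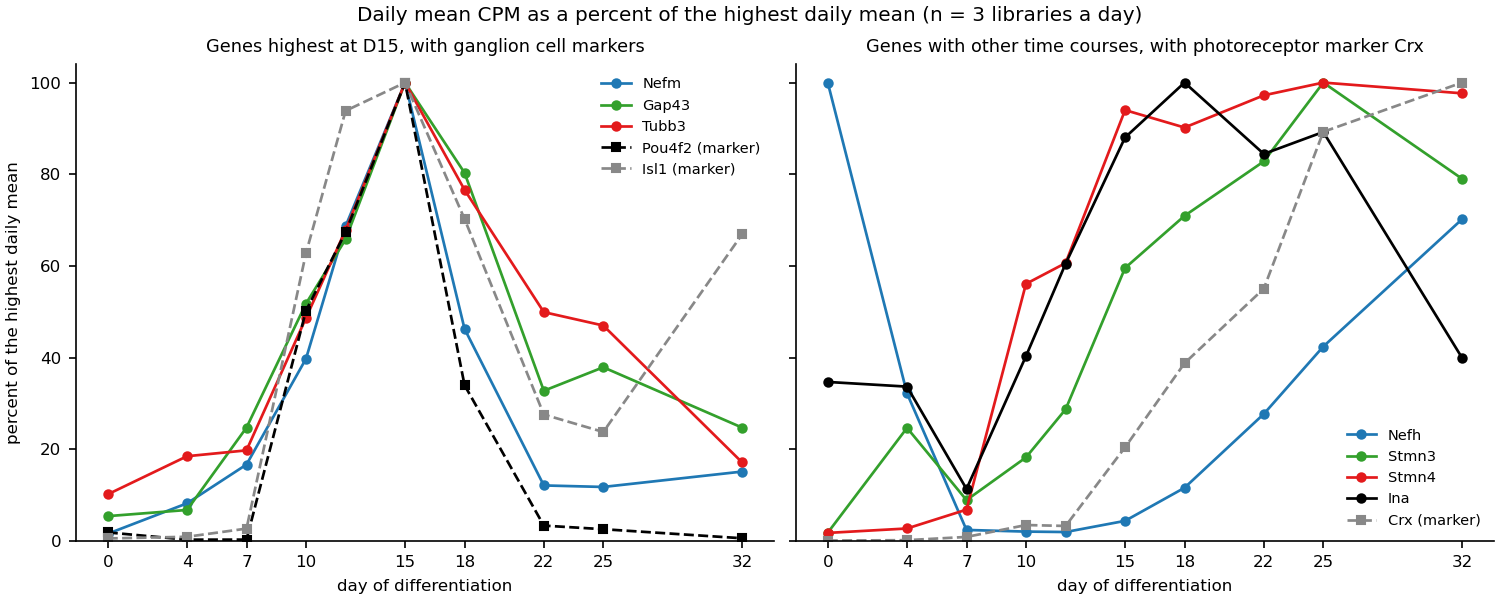
Daily mean CPM of members (circles, solid lines) and of marker genes (squares, dashed lines) as a percent of the highest daily mean (vertical axis) against day of differentiation (horizontal axis), 3 libraries a day. On the left the means of Nefm, Gap43 and Tubb3 are highest on the same day as those of Pou4f2 and Isl1, D15. Replicate 3 was the highest D15 library for each of these genes. By daily medians Nefm, Tubb3 and Pou4f2 stay highest at D15. The median of Gap43 is highest at D18 (156 CPM, against 151 at D15) and that of Isl1 at D12 (72.5 CPM, against 57.7 at D15). On the right Nefh, Stmn3, Stmn4 and Ina are drawn with the photoreceptor factor gene Crx. The mean of Crx rises from 247 CPM at D15 to 1210 CPM at D32.

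At D18, the day of the highest mean of Ina, the ganglion sum was 230 to 272 CPM, and Pou4f1, another ganglion cell factor, stood at 18 ± 5.33 CPM against 7.36 ± 2.7 at D15 (SD, n = 3 each). The sum was lower at D25, at 49.3 to 116 CPM, when Ina, Stmn2, Stmn3 and Stmn4 had means of 149, 204, 79.1 and 68.3 CPM. At D25 Pou4f2 stood at 1.33 ± 1.23 CPM, while Tfap2b, a factor of amacrine cells, was at 350 ± 94.9 CPM. Onecut1, a factor of horizontal cells, was at 17.2 ± 2.43 CPM, down from 59.8 ± 4.5 CPM at D15. The summed level of 7 horizontal cell markers was 402 to 431 CPM at D15 and 221 to 237 at D25. Tfap2b had been at 25.6 ± 12.0 CPM at D15 and was at 164 ± 10.8 CPM at D32, lower than at D25. The summed level of 11 amacrine cell markers was 744 to 962 CPM at D15, 1010 to 1480 at D25 and 841 to 867 at D32. From D15 to D32, 7 of the 11 rose and 1 fell, while Ina fell. Among all tested genes 26.3% rose and 27.8% fell. The part of amacrine cells in the level of Ina was not tested. Lhx1, another horizontal cell factor, did not exceed a mean of 7.81 CPM on any day. Markers of telencephalic neurons were set beside the members too. Their sum over 10 genes was 24.7 to 26.1 CPM at D7, 65.4 to 95.4 at D15, 49.5 to 91.5 at D18, 25 to 28.1 at D22 and 8.38 to 12.5 at D32, and none had a daily mean of 0. Of the 9 tested, 5 rose and 2 fell from D7 to D15, and 0 rose and 4 fell from D15 to D32. The background was 24.3% higher and 19.6% lower in the first of these spans, and 26.3% and 27.8% in the second. Neurod6 of the cortex was at most at 3.24 ± 5.07 CPM (D18), and the part of such cells in the members' levels was not tested. For 10 hindbrain, spinal and motor neuron markers the sum lay between 1.75 and 12.8 CPM over all libraries, with up to 2 of the 10 at 0 on a day. Crx, a factor of photoreceptors, stood at 1210 ± 132 CPM at D32, the day of the highest Nefh among the neural retina libraries.

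Other genes of the axon and the neuronal cytoskeleton were counted by list. Of 19 tested genes of axon growth, 16 rose and 1 fell from D7 to D15, among them the adhesion molecules Ncam1 (16.6 ± 4.39 to 354 ± 41.7 CPM, log2 change 4.42), Cntn2 (17 ± 13.3 to 190 ± 86.0 CPM, 3.48) and Nrcam (21.9 ± 1.31 to 130 ± 7.09 CPM, 2.57), and gamma-synuclein, Sncg (2.83 ± 1.97 to 44.5 ± 12.7 CPM, 3.97). Marcksl1 was the gene that fell. Among all tested genes 24.3% rose and 19.6% fell in that span. From D15 to D32, 4 of the 19 were higher and 7 lower, where 26.3% of all tested genes rose and 27.8% fell. Cntn2 (-3.98) and Sncg (-4.47) fell, as Nefl, Nefm and Gap43 did, while Chl1 (3.12) and Shtn1 (2.14) rose. Their median was 1.36 and then -0.32.

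Of 17 microtubule genes, 12 rose and 0 fell from D7 to D15 (median 1.40), among them the axonal microtubule protein Mapt (tau; 6.74 ± 3.0 to 59.2 ± 20.4 CPM, log2 change 3.13). From D15 to D32, 5 rose and 7 fell. Mapt kept rising, to 181 ± 20.7 CPM (1.61), as did the tubulin gene Tuba4a (1.91), while Tubb2b (-1.85) and Stmn1 (-1.86), the broadly expressed stathmin, fell beside Tubb3. Of 14 genes of axonal transport and the spectrin scaffold, 12 rose and 0 fell from D7 to D15, then 6 rose and 2 fell. Nfasc, an adhesion molecule of the axon initial segment, went from 22.6 ± 9.56 to 125 ± 4.26 CPM and on to 507 ± 90.6 CPM at D32. Here Ank2 (-0.93) and Ank3 were the genes that fell after D15. Among all tested genes 24.3% rose and 19.6% fell from D7 to D15, and 26.3% rose and 27.8% fell from D15 to D32.

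Synaptic and other broad neuronal genes were counted in the same way. Of 20, 19 rose and 1, Elavl2, fell from D7 to D15, and from D15 to D32 10 rose and 5 fell (26.3% and 27.8% of all tested genes did). Snap25, part of the vesicle fusion machinery, went from 2.83 ± 1.98 CPM at D7 to 84.6 ± 21.4 at D15 and 643 ± 16.0 at D32. The 5 that fell included the early neuronal factors Ebf1 (21.1 ± 6.42 to 6.39 ± 1.36 CPM) and Ebf3 (88.3 ± 28.7 to 25.8 ± 5.47 CPM). Of 13 other intermediate filament genes, lamin genes included, 0 rose and 3 fell from D7 to D15, where 24.3% of all tested genes rose and 19.6% fell. From D15 to D32 7 of them fell, among them nestin (Nes, -2.94), while Gfap of glia (5.27), Synm (1.98) and Krt18 rose. Rest, the repressor of neuronal genes in other cells, stood at 317 ± 39.9 CPM at D0, 72.8 ± 8.6 at D7, 66.2 ± 10.7 at D15 and 30.9 ± 4.56 at D32, with its highest daily mean at D0, as for Nefh, Prph and Stmn2.

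Genes whose log2(CPM + 1) over the 30 libraries was most like that of a member were ranked by Pearson's r among 11969 genes, as a description; the libraries share their days, so r largely reflects the time course. Nefl and Nefm had the same first gene, Ebf1 (r = 0.899 and 0.931). Sncg and Cntn2 followed for Nefl, at 0.893 and 0.875. For Gap43 the first genes were Scrn1, Ebf3 and Fstl4, at 0.966, 0.963 and 0.963, and Scrn1 was also second for Nefm at 0.911. Nefh was closest to Nav2 (0.969), Fth1 (0.957) and Hcn2 (0.956), Stmn3 to Gprin1 (0.980) and Stmn4 to Camk2n1 (0.976), Kif3c (0.971) and Rorb (0.970). Ina was closest to Dtx1 (0.923), Tubb3 to Hes5 (0.943), Prph to Las1l (0.940) and Stmn2, with the lowest value of the 10, to Pcyt1b (0.879). Among the members themselves r was 0.90 between Nefm and Gap43 and 0.89 between Gap43 and Tubb3, but -0.71 between Nefm and Nefh.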

How the data were processed

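Libraries were poly(A)-selected and directional per the labels' protocols. The tools named per the submitters' processing notes are Trimmomatic 0.36, kallisto 0.42.4 and edgeR, with the build GRCm38.p4. The authors deposited an estimated count per gene, an estimated count per transcript and, in another table, a normalised signal per gene in CPM. How transcripts were summed to genes and how strand was used are not given in the sources used here. Another 9 value columns match no listed sample and were not used.

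The gene estimates, rounded to whole numbers, went into edgeR 4.0.16 (R 4.3.3): filterByExpr (minimum count 10, minimum total 15), TMM factors, 1 mean per day over all 30 libraries, quasi-likelihood F test and Benjamini-Hochberg adjustment over 19897 genes. The script was tested on simulated data. Members, lists and spans were chosen with earlier results of these data known. Named genes are the 10 members, up to 4 called genes per list with the largest change, no overlap of libraries and at least 10 CPM, those moving against their list, defining markers and the genes most like each member; Col1a1, Rbpms, Pou4f1 and the overlapping genes Nt5c2 and Gm20388 were added after their values were seen.

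Alternatives were RLE factors, library size alone, DESeq2 1.42.0, 2 other filters, limma 3.58.1 on log2 of the deposited CPM plus 1 or 0.1, a replicate block, only the 6 libraries compared, the library set as a term, leaving out libraries, and other length or transcript scales.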

Additional observations from a re-analysis of the deposited data

How the results depend on the processing

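The 56 log2 changes followed here are those of the spans and of the steps called with all libraries. Under alternatives other than leaving out a library they gave 616 values. Of these, 587 kept direction and side of the threshold, 23 lost the call and 1 gained it. Calls gained in steps not called with all libraries are outside these numbers. With the library set as a term in edgeR, Nefm was called from D4 to D7 (adjusted p = 0.021). Stmn2 (adjusted p = 0.04) and Gap43 (adjusted p = 0.047) were called from D25 to D32 in that fit. For Nefl from D0 to D7, where no change was called, the log2 value turned from 0.02 to -0.04 with RLE factors and with DESeq2, -0.0015 with the CPM filter, and -0.16 and -0.18 in limma with 1 and 0.1 added. Leaving out 1 library gave 64 lost calls of 1680 and turned the sign of 4 uncalled values, with values from -0.53 to 0.39 for Nefl from D0 to D7 and from -0.17 to 0.35 for Stmn4 from D15 to D32.

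The number of genes called over all days was 10 without any 1 library. It was 7 to 9 from D0 to D7, 8 to 9 from D7 to D15, 6 to 8 from D15 to D32 and 22 to 29 summed over the 9 steps, against 26 with all libraries. By step it was 5 to 6 (D0 to D4), 4 to 6 (D4 to D7), 4 to 9 (D7 to D10), 0 to 0 (D10 to D12), 0 to 1 (D12 to D15), 0 to 1 (D15 to D18), 1 to 4 (D18 to D22), 0 to 0 (D22 to D25) and 1 to 4 (D25 to D32). With the 6 libraries of a step alone 2 genes were called from D4 to D7, 1 from D10 to D12 and 1 from D12 to D15, with fewer samples behind each test. From D12 to D15 DESeq2 called 1 and the fit without D4 replicates 2 and 3 called 2. From D15 to D18 limma with 0.1 added called 0. From D25 to D32, 5 were called with the library set as a term and 5 without D4 replicates 2 and 3. The cause of these shifts was not tested.

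With the longest transcript as gene length the D15 shares were 38.6% for Stmn2 and 28.7% for Stmn3, and the D32 shares 20.6% for Stmn2, 42.0% for Stmn3, 37.4% for Stmn4 and 15.6% for Nefm. The cause lies in the lengths used.

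The numbers shared by libraries of different days gave correlations of their deviations between -0.15 and 0.07 in the 3 spans. D0, D7 and D32 each lay wholly in a single library set, and days from D10 to D25 were not compared with each other. Whether the numbers pair the libraries of those days was not tested. With the replicate block the counts were 10 over all days, 9, 9 and 8 in the 3 spans and 27 over the 9 steps, where Tubb3 was also called from D0 to D4. Prph and Nefh near their lowest levels rest on about 1 CPM or less, which limits their fold changes.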

Other observations

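Neurofilament mRNA was also set against vimentin and nestin, the intermediate filaments of progenitors and glia, in the length-scaled levels of each library. The summed level of the 5 neurofilament family genes was 0.046 ± 0.0211 times the summed level of Vim and Nes at D7, 0.359 ± 0.152 times at D15, 0.552 ± 0.185 times at D25 and 0.274 ± 0.0594 times at D32 (SD, n = 3 each). Vim alone was at 822 ± 189 at D7, 248 ± 60.1 at D25 and 418 ± 81.7 at D32. Stmn1 stood at 1380 ± 190 at D15, 1560 ± 242 at D25 and 507 ± 59.6 at D32, above Stmn2, Stmn3 and Stmn4 in every one of these libraries.

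On the 6 days from D10 to D25 replicate 2 was the only library of the set with the lower pseudogene share. It was the lowest of its day for Nefm and Prph on 4 days each and for Stmn2, Stmn4 and Tubb3 on 3 days each. For Nefh, Ina and Gap43 it was the lowest on 2 days each, and for Nefl and Stmn3 on 1 day each. It was the highest of its day on 1 day each for Nefl, Nefm and Ina, and on 0 days for the other genes. The median log2 difference of replicate 2 from the others was -0.63 for Nefm, -0.73 for Prph, -0.35 for Tubb3, 0.05 for Nefl and 0.04 for Stmn3. For the remaining genes it lay between -0.2 and -0.03.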
